A study of Saccharomyces cerevisiae with 3 samples.

Results

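The transcript signals of wild-type budding yeast, Saccharomyces cerevisiae, growing at 25 °C were described from the reference channel of 3 Agilent 2-colour arrays. These are 3 of the 6 channels of the series. The reference was labelled with Cy5 on the array that also held an HHO1 deletion strain at 25 °C and on the array with that strain after 15 min at 37 °C. It was labelled with Cy3 on the array that held the wild type after 15 min at 37 °C. HHO1 encodes the linker histone. Cells were grown in YPAD, a rich glucose medium, to an optical density of 0.5, and a linear amplification kit was applied to total RNA from a hot phenol extraction. The labels name no strain background, and they do not say whether the reference RNA of the 3 arrays came from 1 culture or several. The spread between channels may therefore be purely technical, no test was made, and strains and temperatures are not compared. Ranks in the other channel of an array are given only beside the genes whose reference rank differed most between arrays.

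Each array carried spots for 6256 genes, 4007 of them with 2 spots, and all were ranked. For every gene the mean spot brightness above the background used by the scanner software was averaged over its spots and ranked within the channel. The rank is given as a percentile, on which 100 is the brightest gene, and the 3 percentiles were averaged. An SD after a percentile is over the 3 channels. A probe's brightness depends on its sequence and labelling as well as on transcript amount, so a position describes the signal, and genes a few points apart are not ordered in transcript number. Signal over all cells also cannot separate RNA per cell from the share of cells that hold it.

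A yeast cell growing on glucose devotes much of its transcription to making ribosomes and to fermenting sugar to ethanol. Ribosomal protein genes and the enzymes of glycolysis are textbook examples of strongly transcribed genes, whereas genes for respiration of other carbon sources are repressed by glucose. Genes for spore formation are silent in haploid cells, and each haploid mating type expresses its own pheromone and receptor genes.

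Signals were strongly unequal among genes. The 626 genes of the brightest 10% held 73.6%, 76.1% and 74.3% of the summed signal in the 3 channels. All triplets of values name first the array with the HHO1 deletion at 25 °C, then that with the heat-shocked deletion, then that with the heat-shocked wild type. The 100 brightest genes held 40.8%, 44.3% and 41.1%, and the dimmer 50% of genes held 3.69%, 3.30% and 3.47%. No gene spot was saturated. Of the 6256 genes, 5979, 5918 and 5689 had a spot well above background. In all 3 channels this was so for 5678 genes (90.8%), and 257 genes (4.11%) were well above background in none. The median signal above background was 1214, 936 and 380, lowest in the Cy3 channel. Brightness is therefore to be read within a channel and not between the values of a triplet. The Cy3 channel had a median background of 206, against 93.6 and 92.4 in the Cy5 channels. After subtraction of each spot's own background, 297 genes had a negative mean signal in Cy3, against 36 and 51 in the Cy5 channels.

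Ranks were close in all 3 channels. Spearman's rho across 6256 genes was 0.995 between both Cy5 channels, which share a slide and a scan. Between the wild-type reference in Cy3 and that in Cy5 it was 0.991 for the array with the deletion strain at 25 °C. It was 0.995 between the Cy3 reference and the Cy5 reference on the array with the deletion strain at 37 °C. These are correlations across genes, which share probes and the labelled condition and are not independent replicates. The median difference of a gene between 2 channels was 1.29, 2.00 and 1.41 percentile points for the same pairs. Of the 626 places in the brightest 10%, 580 genes (9.27% of all) held one in every channel, and 562 genes (8.98%) lay in the dimmest 10% in every channel. The last genes inside the brightest 10% of the mean rank were BEM2 and ADE12, both at 89.83, and the first outside were SLC1 at 89.83 and OST1 at 89.82. Repeat spots of a gene on 1 array, available for 4007 genes, had rank correlations of 0.992, 0.998 and 0.994. Where both spots were well above background they differed by a median of 0.23, 0.10 and 0.17 on the log2 scale.

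**Figure D1:**
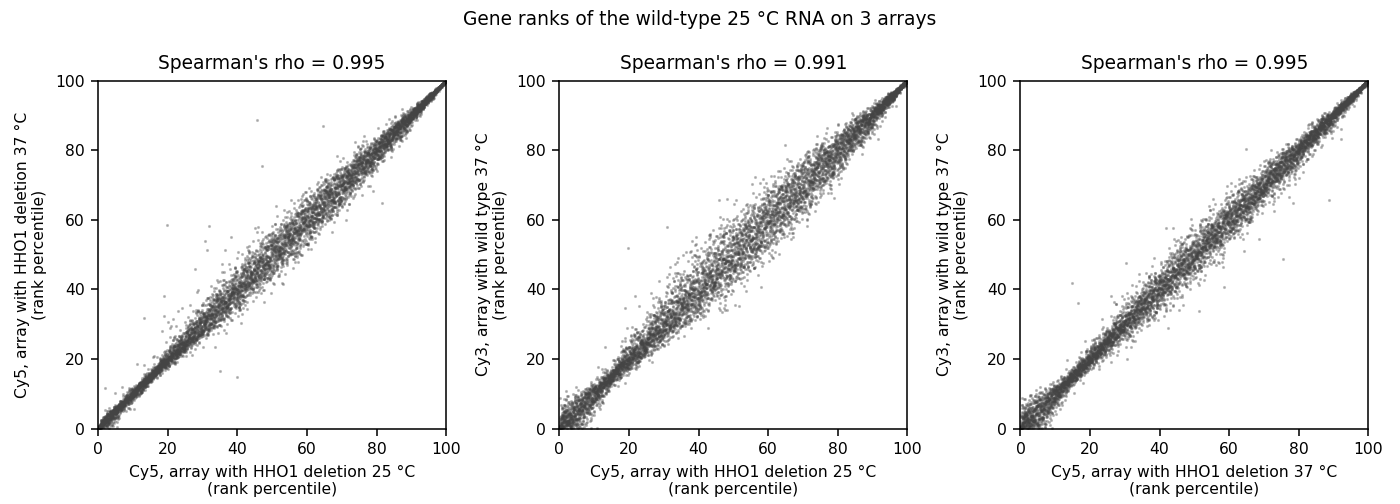
Rank percentile of each of 6256 genes in one wild-type 25 °C channel against another, 1 panel per pair of arrays (both axes in percent, 100 = brightest gene). Points lie near the diagonal in all panels, with Spearman's rho of 0.995, 0.991 and 0.995, and a few genes at middle ranks lie far from it.

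Genes specific to mating type a gave signal and most of those specific to type alpha gave little. Of 7 genes specific to type a, 6 stood above the middle rank. All 7 were well above background in all 3 channels, as were 90.8% of all genes. STE2, the receptor for alpha factor, had signals of 11382, 9082 and 4440 above background and stood at 91.5 ± 0.62. STE6, the exporter of a-factor, stood at 91.6 ± 0.56 and BAR1, a protease that degrades alpha factor, at 90.6 ± 0.27. The a-factor precursor genes MFA2 and MFA1 were at 83.4 ± 1.26 and 69.3 ± 3.21. The exception was the agglutinin gene AGA2 at 21.8 ± 1.37.

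Of 4 genes specific to type alpha, none stood above the middle. MF(ALPHA)1, the main alpha-factor gene, had signals of 9.89, 1.17 and -5.49 and was well above background in no channel. STE3, the receptor for a-factor, had 38.3, 39.2 and 12.1, at 9.71 ± 0.57. SAG1, the alpha agglutinin, was the highest of them at 31.9 ± 3.62. The 18 mating genes of both haploid types had a median of 62.7, led by STE4, a subunit of the pheromone receptor's G protein, at 82.9 ± 0.66. HO, the endonuclease gene of mating type switching, gave 3473, 2212 and 845, at 72.5 ± 2.89. HHO1 gave 5473, 4033 and 1694 and stood at 82.5 ± 0.37, so the gene deleted in the other strain was well above background in each wild-type channel.

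Of 11 genes in common use as nutritional or drug markers, 4 were well above background in no reference channel, against 4.11% of all genes. URA3, for uracil synthesis, gave 0.33, -3.02 and -2.69. LEU2, for leucine, gave 0.34, -2.61 and -17.4. HIS3, for histidine, gave 3.25, 4.34 and 0.64, and MET17, for sulfur assimilation, gave 3.38, 3.45 and -4.27. For scale, negative control spots had signals from -3.91 to 1.26, from -3.56 to 1.21 and from -8.95 to 6.52 between their 5th and 95th percentiles. The other 7 markers were all well above background in all 3 channels, as were 90.8% of all genes. They ran from LYS2 at 70.2 ± 2.50 and TRP1 at 78.6 ± 2.05 to CAN1 at 88.7 ± 0.84 and ADE3 at 96.9 ± 0.10. The labels do not say which genes besides HHO1 the strains lack.

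**Figure D2:**
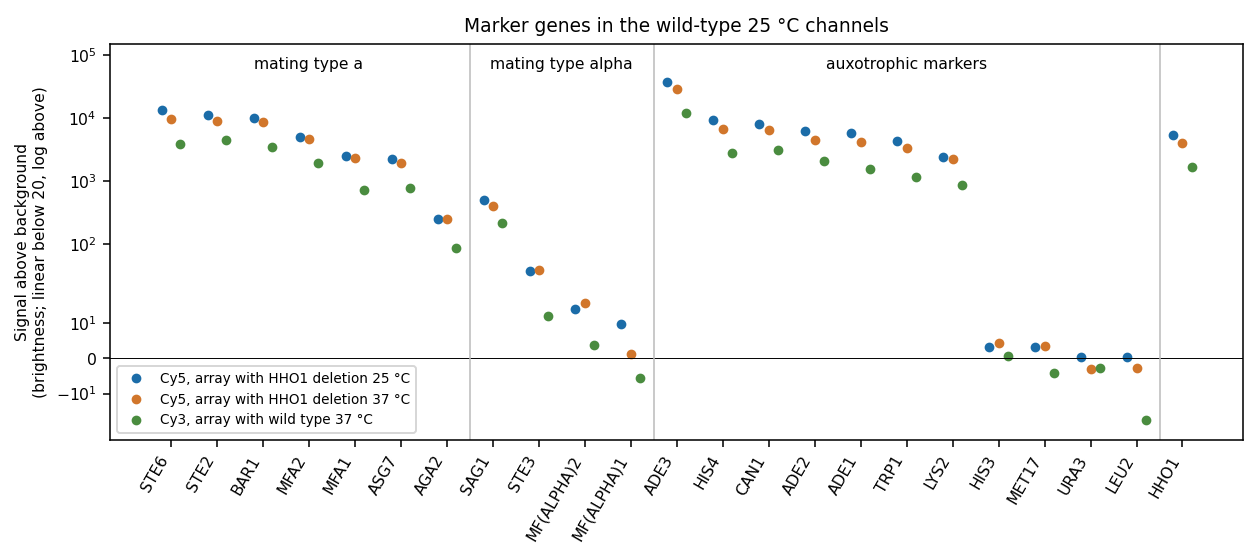
Signal above background (brightness, linear below 20 and logarithmic above) of mating type genes, marker genes and HHO1 in the 3 wild-type 25 °C channels, 1 point per channel. STE2 lies between 4440 and 11382 while MF(ALPHA)1 and the markers HIS3, MET17, URA3 and LEU2 lie at or near 0 in each channel.

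The top of the ranking was filled by protein synthesis and sugar fermentation. Of the 100 brightest genes, 47 encoded ribosomal proteins, 15 were in the list of glycolysis and fermentation and 8 were elongation or release factors. The highest signals belonged to TEF2 (YBR118W) and TEF1 (YPR080W), which encode the same elongation factor that carries aminoacyl-tRNA to the ribosome, and to RPS2 (YGL123W), a protein of the small subunit. TEF2 gave 514393, 523542 and 121298 and TEF1 gave 439331, 442246 and 125773. RPS2 gave 414242, 401574 and 190899, the brightest signal of the Cy3 channel. All 3 stood above 99.9. Cross-hybridisation between the near-identical TEF1 and TEF2 was not tested.

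Ribosomal protein genes lay almost wholly in the upper ranks. In the small subunit 50 of 56 genes and in the large subunit 71 of 81 were in the brightest 10%, against 10% of all genes, with median percentiles of 97.9 and 97.3 against 50 by construction. RPL4A stood at 99.9 ± 0.10 and RPP0, of the ribosomal stalk, at 99.8 ± 0.05. The lowest were RPS30B at 58.9 ± 4.53 and RPL7B at 30.3 ± 3.18. Among the elongation and release factors 10 of 13 were in the brightest 10%, including EFT2, for the translocation factor, at 99.6 ± 0.10. HEF3, the little used copy of an elongation factor, was the lowest at 16.1 ± 0.51. Initiation factors stood lower, with 12 of 27 in the brightest 10% and a median of 87.8, led by the helicase genes TIF2 at 99.1 ± 0.12 and TIF1 at 99.04 ± 0.10. Of 20 cytosolic tRNA synthetase genes 19 were in the brightest 10%, and their whole range ran from WRS1 at 84.7 to KRS1 at 98.4.

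Many ribosomal proteins are made from 2 gene copies, named A and B, and 59 such pairs were measured. Both copies were in the brightest 10% in 46 pairs, 1 copy in 10 pairs and neither in 3. The copies lay within 2 percentile points of each other in 37 pairs and more than 10 points apart in 7. RPL7A stood at 85.0 ± 2.52 and RPL7B at 30.3 ± 3.18. RPL22A was at 98.2 ± 0.07 and RPL22B at 59.1 ± 1.52. The B copy was the brighter in RPS9, at 98.9 against 82.2, and in RPS27, at 98.2 against 83.8. These gaps exceed the spread over channels, but each copy was read by its own probe, and near-identical copies may share signal.

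Glycolysis and ethanol fermentation had the highest median of the 41 lists, 99.2, and 19 of its 24 genes were in the brightest 10%. The mutase gene GPM1 (YKL152C) gave 380756, 355082 and 74771. The pyruvate kinase gene CDC19 (YAL038W) gave 330755, 343167 and 90599, and the aldolase gene FBA1 (YKL060C) 365588, 335205 and 87808. PDC1, the main pyruvate decarboxylase, TPI1, the triose phosphate isomerase, ADH1, the main ethanol-forming dehydrogenase, ENO2, an enolase, and PGK1, the phosphoglycerate kinase, were all among the 15 brightest genes, at 99.8 to 99.9. Minor isozymes varied in position. The decarboxylase isozyme gene PDC6 was at 10.8 ± 0.87, with signals of 62.0, 38.0 and 15.1, and the second pyruvate kinase gene PYK2 was at 68.6 ± 4.15. The decarboxylase isozyme gene PDC5, in contrast, was at 97.4 ± 0.36 and the glucokinase gene GLK1 at 93.0 ± 1.22. The 3 glyceraldehyde phosphate dehydrogenase genes TDH1, TDH2 and TDH3 all lay between 99.2 and 99.5, and they are similar in sequence.

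Hexose transporters, which bring in the sugar, had members at both ends of the ranking. HXT3 stood at 97.2 ± 0.32, HXT2 at 96.3 ± 0.54 and HXT1 at 92.5 ± 0.55, and 7 of 17 genes were in the dimmest 10%, against 10% of all genes. HXT3 gave 34324, 32805 and 14210, whereas HXT14 gave 5.40, -0.26 and -3.32 and was well above background in no channel. HXT7, a high-affinity transporter, was at 88.3 ± 1.57 and HXT5 at 15.8 ± 4.09. The list median was 12.8, and 9 of the 17 members were well above background in all channels, against 90.8% of all genes. When only genes well above background in all channels were ranked, the list median was 79.9, so the median depends on the dim members.

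**Figure D3:**
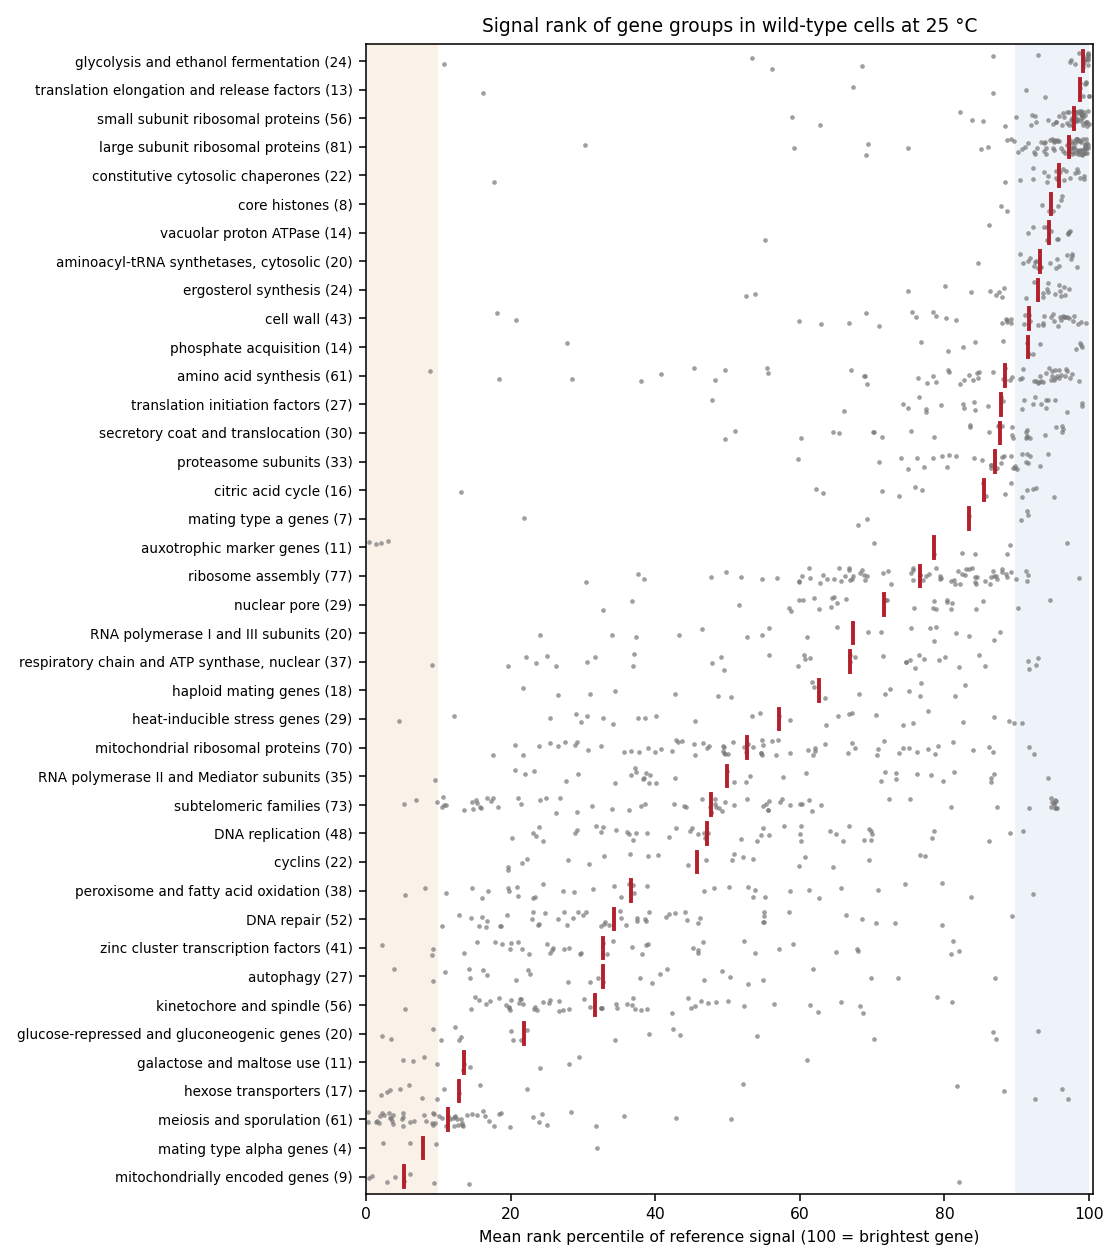
Mean rank percentile of each member of 40 gene groups in the wild-type 25 °C channels (grey points, number of members in brackets, red bars for medians), ordered by median. Blue shading marks the brightest 10% of genes and orange the dimmest. Glycolysis and ribosomal protein genes crowd at the bright end, from a median of 99.2 to 97.3, and meiosis genes at the dim end, with a median of 11.3.

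Below translation and glycolysis came the machinery that maintains proteins, membranes and the cell wall. Of 22 constitutive cytosolic chaperone genes 20 were in the brightest 10%, with a median of 95.9. SSB1 and SSB2, the Hsp70 pair that binds nascent chains, stood at 99.3 each, and the Hsp90 gene HSC82 at 98.7 ± 0.59. All 8 core histone genes lay between 87.9 (HHF2) and 96.2 (HTA2). In the vacuolar proton pump 12 of 14 genes were in the brightest 10%, led by VMA2 at 97.4 ± 0.15. Ergosterol synthesis had 14 of 24 there and a median of 93.0, with ERG4 at 97.2 and the lowest member, ERG12, at 52.6. Of 43 cell wall genes 24 were in the brightest 10%, with CCW12, for an abundant wall protein, at 99.6 ± 0.06 and the glucan-remodelling gene GAS1 at 98.8 ± 0.10.

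Amino acid synthesis and phosphate acquisition were also in the upper ranks. Amino acid synthesis had a median of 88.4 with 28 of 61 genes in the brightest 10%, but its members spread widely, from ASN2, an asparagine synthetase gene, at 98.7 ± 0.10 to ARG3, of arginine synthesis, at 8.89 ± 1.03. ARG3 gave only 29.4, 31.3 and 11.7. Of 14 phosphate acquisition genes, a group that yeast induces when phosphate is short, 8 were in the brightest 10%. The secreted phosphatase gene PHO11 gave 87130.2, 98112 and 43384.5 and stood at 99.1 ± 0.22, PHO12, near-identical to it, was at 98.2 ± 0.21, and PHO84, the high-affinity phosphate transporter, was at 98.8 ± 0.19. PHO5, a phosphatase gene of the same family, was at 84.3 ± 1.99, and PHM8 was the lowest of the list at 27.8 ± 0.83. Proteasome subunit genes formed a compact group, with a median of 87.0 and all 33 between SEM1 at 59.7 and RPN1 at 94.3. The secretory list had a median of 87.7, led by ARF2 and ARF1, small GTPases of vesicle budding, at 96.4 and 96.3.

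The citric acid cycle had a median of 85.5, with the dehydrogenase subunit gene LPD1 at 95.1 ± 0.54 and the minor synthase gene CIT3 at 13.1 ± 0.29. Nuclear genes of the respiratory chain and ATP synthase had a median of 66.9, from QCR6 at 93.0 to the dehydrogenase gene NDE2 at 9.04. Ribosome assembly genes, which build the ribosomes but are not part of them, had a median of 76.6, with 5 of 77 in the brightest 10%. The nucleolar protein gene NSR1 stood apart from the rest at 98.6 ± 0.15, ahead of NOP56 at 91.6. The polymerases I and III that make the RNA of ribosomes had a median of 67.3 and none of 20 in the brightest 10%, and nuclear pore genes had 71.6.

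Of the 1251 genes in the middle 20% of the ranking, 184 (14.7%) were in any list, against 20.6% of all genes. The middle 20%, between percentiles 40 and 60 of the order, held 30 of 70 mitochondrial ribosomal protein genes, against 20% of all genes, and their median was 52.7. It also held 24 of 73 genes of subtelomeric families, 16 of 48 DNA replication genes and 8 of 22 cyclin genes, with medians of 47.7, 47.2 and 45.8. The listed genes nearest to the middle were MAD3, of the spindle checkpoint, MRPS28, of the mitochondrial ribosome, PEX8, of peroxisome import, GAL11, of Mediator, and ATG5, of autophagy, all at 49.9 to 50.3. MAD3, for example, gave 1325, 974 and 342. Subunits of RNA polymerase II and Mediator had a median of 49.9 and a wide range, from the shared subunit gene RPO26 at 94.4 to NUT2 at 9.58.

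Among the replication genes RFA2, of the single-strand binding complex, was highest at 90.9 ± 0.34, followed by the sliding clamp gene POL30 at 89.1 ± 0.64, and PSF2 was the lowest at 20.2. Cyclin genes ran from CLN1, of the G1 phase, at 77.3 ± 1.12 to BUR2 at 19.7 ± 2.09, and none was in the brightest 10%. The 29 heat-inducible stress genes had a median of 57.2 in these cells at 25 °C, with HOR7 at 90.8 ± 0.30 and the Hsp90 gene HSP82 at 89.6 ± 3.15. That median was 52.6, 61.1 and 52.1 in the 3 channels, and it was 60.4 without the array of the deletion strain at 25 °C and 52.9 without the array of the deletion strain at 37 °C.

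Gene groups of DNA repair, chromosome segregation, autophagy and specific transcription factors lay in the lower ranks but mostly above background. DNA repair had a median of 34.3. All 52 genes were well above background in all 3 channels, against 90.8% of all genes. RAD23 was an exception at 89.3 ± 0.76, and RAD55 was the lowest at 10.4. Kinetochore and spindle genes had a median of 31.7 over 56 genes, autophagy genes 32.7 over 27 and zinc cluster transcription factors 32.8 over 41, of which none was in the brightest 10%. HAP1, a regulator that senses heme, was the highest of the zinc cluster genes at 82.0 ± 0.79, and GAL4, the galactose regulator, gave 39.9, 38.5 and 6.68, at 9.06 ± 0.95. Peroxisome and fatty acid oxidation genes had a median of 36.7, with MDH3 at 92.3 and the thiolase gene POT1 at 5.34 ± 3.23.

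Of the 626 genes of the dimmest 10%, 68 (10.9%) were in any list, against 20.6% of all genes. Meiosis gave the most of these 68. Of 61 meiosis and sporulation genes 27 lay there, against 10% of all genes, and 13 were well above background in no channel, against 4.11%. Their median was 11.3 and only SPR6, at 50.5 ± 1.86, passed the middle. MEK1, a kinase of meiotic recombination, gave -4.22, -3.81 and -12.2. IME1, the inducer of meiosis, gave 68.7, 64.6 and 25.2 at 12.6 ± 0.46, and SPO11, which cuts DNA in meiosis, gave 32.4, 22.4 and 6.59.

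Glucose-repressed genes had a median of 21.8, and the gluconeogenic genes FBP1 and PCK1 stood at 13.1 ± 1.16 and 12.9 ± 1.54. The list also held GLK1, a glucokinase gene, at 93.0, and its regulator SIP4 was well above background in no channel. Of 11 genes for galactose and maltose use 4 were in the dimmest 10%. GAL1, the galactokinase, gave 288, 276 and 123, and GAL10, of the same pathway, gave 15.6, 10.1 and 1.29. MAL31, a maltose transporter gene, was the one member past the middle, at 61.0 ± 5.13.

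Of 9 mitochondrially encoded genes, 4 were well above background in no channel, against 4.11% of all genes. COX1, a cytochrome oxidase subunit, gave 33.5, 35.3 and 13.3, and VAR1, of the mitochondrial ribosome, gave 1.51, 1.41 and -12.6. OLI1, a subunit of the ATP synthase, was apart from the others with 3726, 4175 and 2345, at 82.0 ± 4.69. The priming of the amplification is not known here, so the positions of mitochondrial transcripts among nuclear ones are not interpreted.

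Genes were also ranked within classes of similar gene length, as listed in the R64 gene table. This is not coding length for every gene, since only 5581 of 5756 lengths (97.0%) are multiples of 3. The medians of the 41 lists then had a Spearman correlation of 0.993 with those above, and 35 moved by more than their spread over channels. The ranking also left out the 500 genes without a listed length, of which 287 lay in the dimmest 10% of all genes. How far this loss, and listed lengths that differ from coding length, shaped these shifts was not tested. Glycolysis stood at 99.1 and the large and small ribosomal subunits at 95.6 and 96.9 on that scale, and constitutive chaperones, at 96.0, passed the large subunit. Several groups of the lower ranks had lower medians, with DNA repair at 21.6, zinc cluster factors at 20.5, glucose-repressed genes at 12.8, galactose and maltose use at 7.25, hexose transporters at 6.55 and meiosis at 4.63. Lists with a higher median included subtelomeric families (56.5 against 47.7), mating type a genes (88.0 against 83.4) and nuclear respiratory genes (70.8 against 66.9). Mating type alpha genes were also higher, at 9.55 against 7.87.

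Length, naming and chromosomal position varied along the ranking. The median gene length in the R64 gene table, known for 5756 genes, was 675 bases in the dimmest 10%. It reached 1416 in class 7 of 10 by rank and was 1100 in the brightest. The dimmest 10% held 287 of the 500 genes that the table does not list, whose median percentile was 8.10, against 53.3 for listed genes. No symbol was known for 409 genes (65.3%) of the dimmest 10% and 30 (4.8%) of the brightest, against 15.9% of all genes. Of the 320 genes that are the outermost 10 at each end of the 16 chromosomes, 56 (17.5%) were in the dimmest 10% and 30 (9.38%) in the brightest. Each of these bands holds 10% of all genes, so the share in the brightest was near that of all genes. The largest number, 74, was in class 2 of 10 by rank, and the median was 29.1.

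Rank spread in percentile points was largest in the middle. Percentiles are bounded at both ends, which limits ranges there, so these values do not order the classes by precision of signal. The median range over the 3 channels was 4.57 percentile points in class 6 of 10 by rank, 0.67 in the brightest and 2.16 in the dimmest. A range above 10 points was found for 153 genes, 45 of them in class 5 and none in the brightest.

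**Figure D4:**
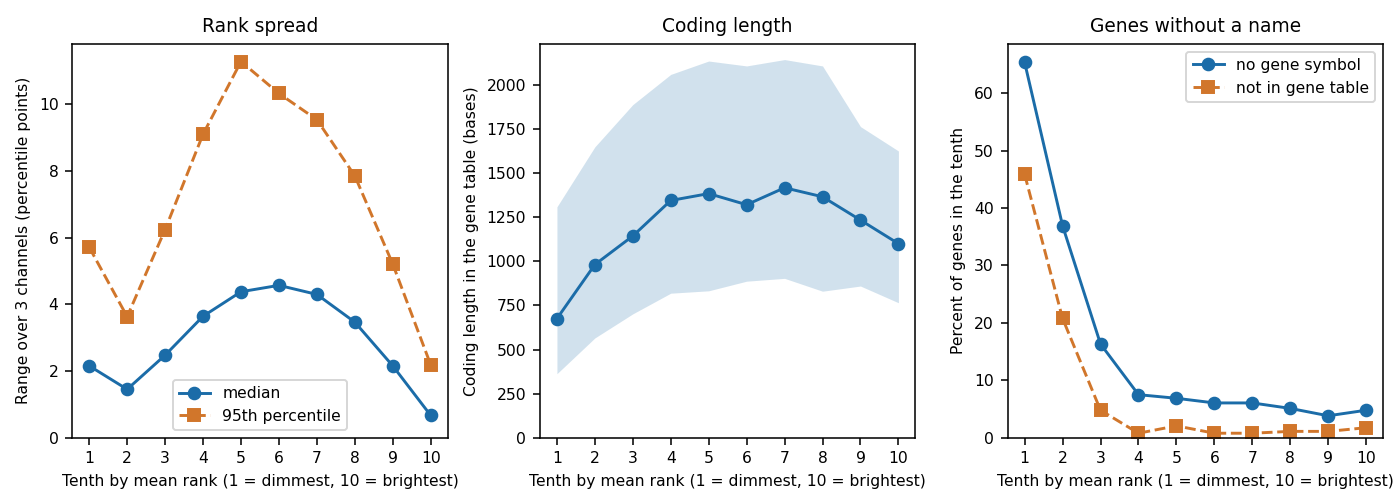
Properties of genes in 10 classes of the mean rank (1 = dimmest, 10 = brightest): range of rank over 3 channels in percentile points, gene length in bases (headed coding length, median with quartiles shaded) and percent of genes without a symbol or not in the gene table. The range peaks near the middle at 4.57 points, and unnamed genes gather in the dimmest 10%.

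Of the 10 genes whose reference rank differed most between arrays, 5 were in the list of heat-inducible stress genes, which holds 29 of the 6256 genes. Among genes with every spot well above background, SSA4, a heat-inducible Hsp70 gene, had the widest range. It gave 1046, 6864 and 699.6 in the wild-type 25 °C channels, at percentiles 45.7, 88.8 and 65.7. In the other channel of the same arrays SSA4 stood at 45.5, 99.98 and 99.8. XBP1, a stress-induced repressor, was at 19.8, 58.6 and 52.0 in the reference and at 21.5, 75.6 and 75.9 in the other channel. HSP26, a small heat shock protein, was at 47.1, 75.5 and 48.9 in the reference and at 36.8, 99.95 and 99.8 in the other channel.

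PIN3, SSA3, TSL1 and DDR2 had the same arrangement, lowest on the array without a heat-shocked sample in both of its channels. SAP1, YLR460C and COS12 did not. SAP1, an ATPase gene, was at 40.0, 14.7 and 41.8 in the reference and at 42.5, 46.2 and 49.7 in the other channel, so its range came from the reference channel of 1 array. The mean percentiles of these 10 genes rest on channels that differ by 18.99 to 43.1 points.

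Of 29 heat-inducible stress genes, 15 ranked higher in the reference channel of both arrays with a heat-shocked sample than on the array without one, against 36.1% of all genes. Larger shares did so in several other lists. They included 16 of 24 in ergosterol synthesis, 28 of 43 in the cell wall list and 43 of 73 in subtelomeric families. Mating type alpha genes had 3 of 4, but only 2 of the 4 were well above background in all 3 channels. Mitochondrially encoded genes had 6 of 9, but 4 of the 9 were well above background in no channel. Shares were also larger for mating type a genes, the citric acid cycle, galactose and maltose use, elongation and release factors, and amino acid synthesis. Of 77 ribosome assembly genes, 60 ranked lower on both, against 38.1% of all genes, with a median change of -2.07 percentile points. So did 53 of 70 mitochondrial ribosomal protein genes, with a median change of -2.95, and 7 of 8 core histone genes, with a median change of -0.75. The median change was 0.02 points for the large and 0.10 points for the small ribosomal subunit. Across 6256 genes the change of reference rank from one array to another correlated with the change in the other channel at a Spearman's rho of 0.22, 0.04 and -0.19 for the 3 pairs of arrays, in the order used above. The part of the other channel, of dye and of separate RNA preparations in these shifts was not tested.

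**Figure D5:**
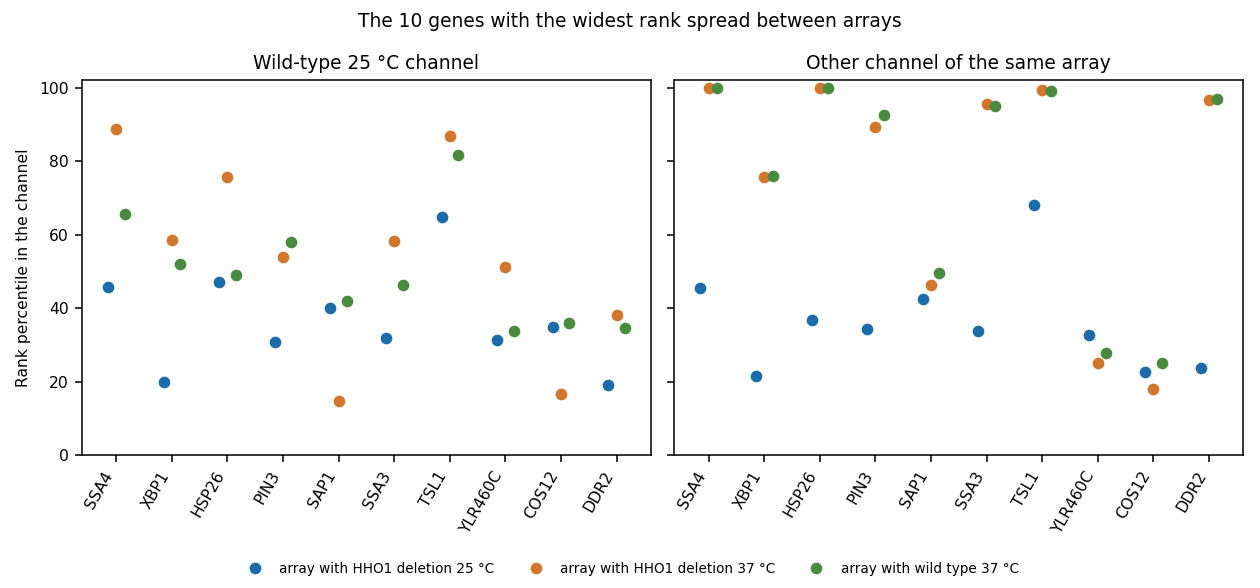
Rank percentile of the 10 genes with the widest range between arrays, in the wild-type 25 °C channel (left) and in the other channel of the same array (right), 1 point per array. SSA4 moves from 45.7 to 88.8 in the reference, while the reference values of SAP1 and COS12 are low on 1 array.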

How the data were processed

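Spot intensities were deposited by the authors as scanner files made with Agilent Feature Extraction 9.1.1.1, per the file headers. They give mean and median pixel brightness, the background used (with a spatial detrend) and flags for each spot. Of 10789 spots on each array 10263 were gene spots. The submitters' processing notes name limma, and the authors' ratios were not used here. No genome build is named for the probes, and coordinates are left out.

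From these intensities, background used was subtracted from mean brightness, spots of a gene were averaged and genes were ranked per channel with Python 3.11.15, pandas 2.3.3 and scipy 1.17.1. Well above background is the software's flag, with a multiple of 2.6 background SDs. With 3 arrays, their number limits the precision. The ranking was tested on simulated channels. Gene names come from the R64 table (5756 of 6256 genes matched), and 2 list entries had no probe. Members and lists were chosen with earlier results of these data known. Named genes were the 15 brightest, the 3 highest and the lowest of each list (all of lists of up to 11), the 5 nearest the middle, the 10 widest in range, the 4 around the limit of the brightest 10% and NPC2, whose repeat spots differed most; HXT5, HXT7, GAL4, IME1, SPO11, FBP1, PCK1, PYK2, PDC5, the TDH genes, PHO5, PHO12, the A and B pairs and the other genes of the closing paragraphs were singled out after their values were seen. A rule on near-identical protein pairs was not applied, since protein sequences were not used here. Alternatives covered the signal column, background, spots, flags, a filter on dim genes, gene length and leaving out each array. Not every gene that the rule names is reported here.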

Additional observations from a re-analysis of the deposited data

How the results depend on the processing

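The order of genes was nearly the same under 10 of 11 alternatives, with a Spearman correlation to the reported mean rank of at least 0.999, and it was 0.973 within classes of gene length. The filter on dim genes keeps the order of the remaining genes within each channel. Leaving out 1 array keeps channels that are part of the reported mean. High correlations were thus largely built into these settings. The scanner's processed signal shared 625 of 626 genes of the brightest 10%, no background subtraction 626, the local background 626, the brightest spot 620, and ranking within gene length 523 of its 576. The count of genes in the brightest 10% of every channel ranged from 524 to 599 and that in the dimmest 10% from 512 to 598, and leaving out 1 array gave 585 to 599 and 572 to 598. The lowest rank correlation between channels was 0.989 when only genes well above background in all channels were ranked, and 0.991 to 0.995 when 1 array was left out. Of 451 list medians under alternatives 361 moved by less than their spread over channels and 90 by more, of which 37 came from the filter on dim genes and 35 from gene length. Both settings rank fewer genes. The largest shift was that of hexose transporters under the filter on dim genes, from 12.8 to 79.9. Of 2250 values of named genes 1957 stayed within their spread. Without the array of the deletion strain at 25 °C XBP1 stood at 55.3, and without that of the deletion strain at 37 °C SSA4 stood at 55.7. No paired analysis was possible because the 3 channels hold 1 group and no test was run. Low signal limits the order of the 257 genes that were well above background in no channel.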

Other observations

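Several of the brightest signals belonged to features without a gene symbol, which are given here as values. Of 30 such genes in the brightest 10%, 10 are not listed in the R64 gene table. YDR133C gave 412889, 470227 and 124146 and held position 4 of 6256, and CCW22, whose systematic number follows it and which is related to the wall protein gene CCW12, was at position 87. YDR154C was at position 55 and CPR1, which follows it in number, at 165. YMR304C-A was at 91 and its numbered neighbour SCW10, a wall protein gene, at 213. YER138W-A and YBL107W-A were at positions 21 and 23. Not one of these 30, since it has a symbol, PET122, an activator of mitochondrial translation, gave 197499, 193464 and 44406, at position 28. What these probes hybridise to was not tested.

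Members of repeated families that near-identical probes cannot be assumed to separate also stood high. All 8 YRF1 genes, which encode helicases of telomere-adjacent elements, lay between 94.7 and 95.6, and all 4 copies of the asparaginase gene ASP3 between 97.3 and 97.5. In contrast, 24 PAU genes, a family of wall proteins induced without oxygen, had a median of 50.3 and a range of 31.2 to 63.0, with none in the brightest or dimmest 10%. The 12 COS genes ranged from 13.5 to 94.9.

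Neighbouring genes had weakly related ranks. The Spearman correlation of mean rank was 0.13 over 1418 divergent pairs, 0.06 over 2636 tandem pairs and 0.05 over 1435 convergent pairs. These are descriptions across gene pairs within the same channels, with no test. The repeat spots that differed most were those of NPC2, by 1.84 on the log2 scale on the array of the deletion strain at 25 °C and by 0.06 and 0.21 on the other arrays.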
